A study of Homo sapiens with 6 samples.

Results

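The integrated stress response is read here through 10 genes, the transcription factor ATF4 and 9 genes listed as its targets. The 9 are DDIT3, TRIB3, CHAC1, DDIT4, ASNS, PSAT1, PHGDH, PPP1R15A and EIF2AK3, the last encoding a kinase that acts before ATF4. The 10 genes are a list of symbols, drawn up with earlier results of these data known. All 10 were found among the 16279 genes of the tables and passed the filter on low counts that kept 13311 genes. The RNA came from 12Z cells, an established human endometriotic epithelial line. One group was untreated (Control, n = 3) and the other received 10 ng/mL rhChem157S, the recombinant active form of the adipokine chemerin (rhChemerin in the labels), for 48 h (n = 3). The labels call the 3 libraries of a group biological replicates, and nothing says how the cultures were separated, so the p-values measure the spread between these libraries. The cells were maintained in DMEM/F-12 with serum and antibiotics. The values describe 1 cell line.

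In the integrated stress response, 4 kinases that sense different stresses phosphorylate the translation initiation factor eIF2α. General protein synthesis then slows while the mRNA of ATF4 is translated better, so that ATF4 protein can rise without a rise of its mRNA. ATF4 protein, often paired with C/EBP proteins, switches on genes for amino acid supply, for redox balance and, when stress lasts, for cell death, and it switches on the phosphatase subunit that ends the response. RNA-seq measures the mRNA only, and neither ATF4 protein nor eIF2α phosphorylation was measured in these libraries.

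ATF4 and C/EBP proteins bind a composite DNA element whose core is TGATGNAA. This core was sought on both strands, from 250 bases before to 50 bases after each RefSeq gene start (GRCh38.p14). It was present in 2 of the 15 windows of the 10 genes, and in 3.62% of the 35116 windows of all genes. The 2 sequences that follow are shown because they are the windows of these genes that hold the core. Each line gives the 250 bases before the gene start, 5′ to 3′ on the strand of the gene, with the core in capitals. For CHAC1 (chr15:40953221-40953470, plus strand) the core lies on the opposite strand and begins 209 bases before the start, and for ASNS (chr7:97872409-97872658, minus strand) it lies on the strand of the gene and begins 68 bases before it.
CHAC1: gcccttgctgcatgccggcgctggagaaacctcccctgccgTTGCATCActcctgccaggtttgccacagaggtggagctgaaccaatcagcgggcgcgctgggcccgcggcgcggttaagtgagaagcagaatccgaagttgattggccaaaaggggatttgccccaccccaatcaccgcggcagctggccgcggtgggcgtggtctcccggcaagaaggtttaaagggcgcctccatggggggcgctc
ASNS: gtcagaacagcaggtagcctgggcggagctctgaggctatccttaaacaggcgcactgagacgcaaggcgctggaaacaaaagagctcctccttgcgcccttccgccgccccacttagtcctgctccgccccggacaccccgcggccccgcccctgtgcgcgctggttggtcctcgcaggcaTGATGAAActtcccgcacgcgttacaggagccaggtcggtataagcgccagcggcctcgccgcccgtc
Both cores lie before the RefSeq start used for the window but inside the longer span that GENCODE gives each gene. The match is a description of letters. In the other 8 genes the core is not in this window, which says nothing of elements elsewhere in those genes.

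Libraries held 35430881 to 38341643 counts on genes, and 1 count in the smallest library is worth 0.0282 CPM (counts scaled to a common library total). The scaling factors (TMM, which correct for the composition of a library) were 1.04 to 1.05 in Control and 0.898 to 1.00 with rhChem157S, with the lowest value in rhChem157S replicate 3, the library with the largest share of counts in its 10 most abundant genes (5.80%). Of the epithelial markers, KRT8, KRT18 and KRT19 were abundant, at 277 FPKM or more in every library, while EPCAM and CDH1 stayed under 1 FPKM in every library and were lower in each treated library than in each Control library. KRT8 (log2 fold change 0.29) and KRT19 (0.27) went the other way, higher in each treated library in TMM-scaled CPM. Fibroblast collagens were abundant too, with COL1A1 at 728 to 1165 FPKM. The 7 epithelial markers summed to 1596 to 1866 FPKM in Control and 1760 to 1976 with rhChem157S, the 5 fibroblast markers to 1538 to 2019 and 1056 to 2101, the 5 endometrial markers to 34.999 to 42.7 and 26.3 to 34.97, and the 3 endothelial markers to at most 0.691 in any library. PTPRC, the defining marker of leukocytes, had at most 12 counts, and the leukocyte list summed to 70.1 to 135 FPKM in Control and 80.2 to 121 with rhChem157S, nearly all of it CD68. The part of these markers in the results below was not tested, and in bulk RNA fewer cells of a type cannot be told apart from less RNA per cell.

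With rhChem157S, CHAC1 was 3.56-fold lower than in Control, TRIB3 1.33-fold and DDIT4 1.37-fold lower, and PPP1R15A was 2.10-fold higher, and in these 4 genes the treated range did not overlap the Control range. For PPP1R15A the log2 fold change of 1.07 was 0.35 without rhChem157S replicate 3. In the other 6 genes, ATF4 itself, DDIT3, EIF2AK3 and the amino acid synthesis genes ASNS, PSAT1 and PHGDH, the groups overlapped. Of the 10 genes, 0 had a Benjamini-Hochberg adjusted p under 0.05 with edgeR's quasi-likelihood test, where 0.0301% of all genes had one, and 4 had an unadjusted p under 0.05, where 22.8% of all genes did. DESeq2 on the same counts called 2 of the 10, CHAC1 and TRIB3, against 9.05% of all genes. By direction, 3 of the 10 were lower and 1 was higher at an unadjusted p under 0.05 with edgeR, against 11.4% of all genes lower and 11.4% higher. The same 3 were lower and the same 1 higher by groups that did not overlap, against 16.0% of all genes lower and 16.5% higher. The median log2 fold change of the 10 was -0.07, against 0.01 for all tested genes. FPKM scales by the library total alone, and on that scale the treated mean was below the Control mean in 8 of the 10 genes and in 8860 of the 13311 tested genes, against 6 of the 10 and 6425 with TMM.

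**Figure D1:**
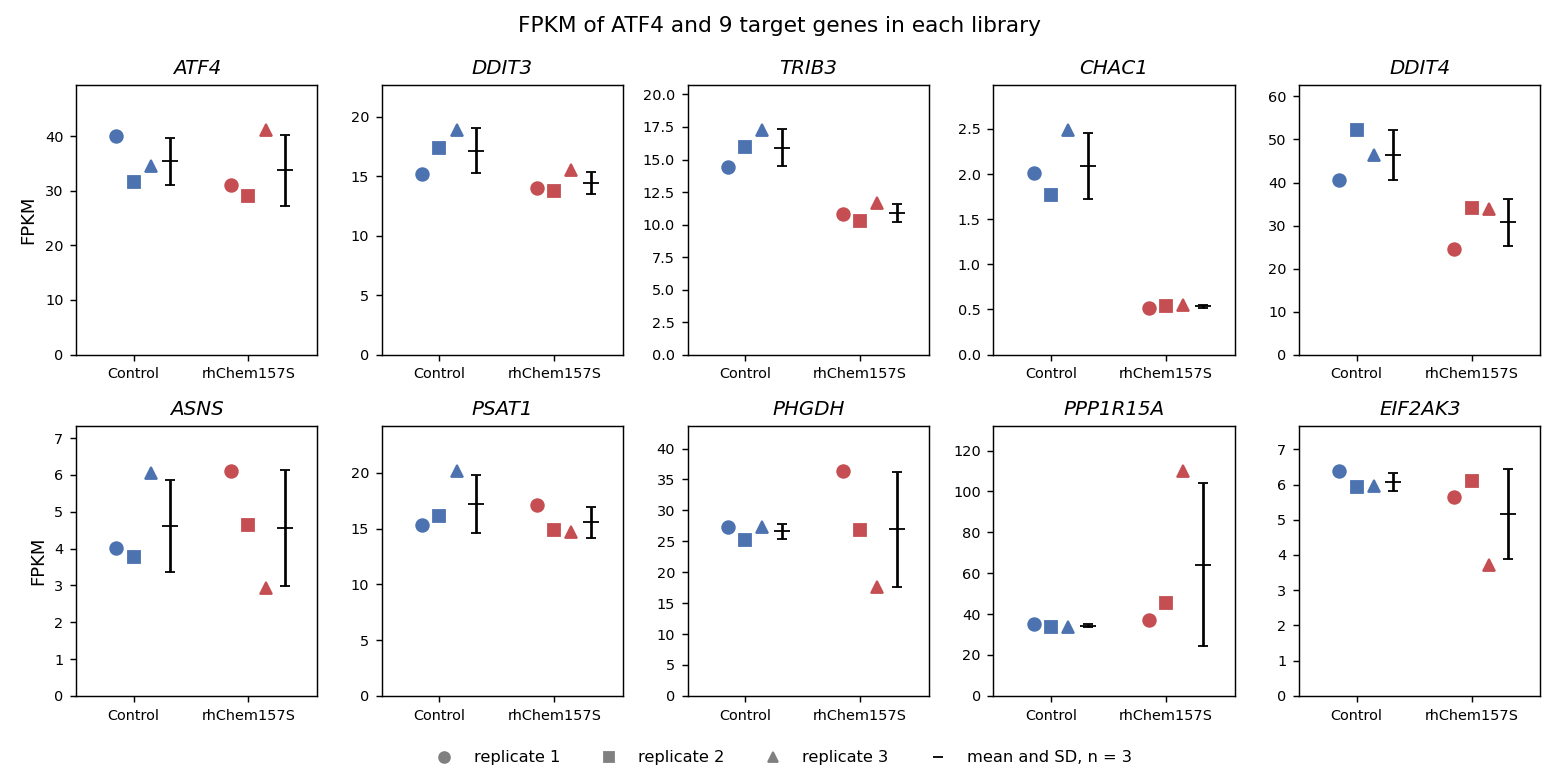
FPKM (fragments per kilobase of gene length scaled to the library total, y axis from 0, 1 panel a gene) of ATF4 and 9 targets in each library, with Control in blue, rhChem157S in red, a symbol for each replicate number, and the mean with its SD (n = 3) in black. CHAC1 sits at 0.519 to 0.553 FPKM in the treated libraries and at 1.77 to 2.49 in Control, while the treated libraries of PPP1R15A spread from 37.1 to 110.0.

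FPKM divides the count by gene length and library total. The gene lengths used are not stated, and they were checked only for being equal over the libraries. For ATF4 and CHAC1 the length implied by count and FPKM was well above their GENCODE exon bases (2514 and 2058). It was also above their whole GENCODE span, introns included. For DDIT3, DDIT4, TRIB3, ASNS, PHGDH, PPP1R15A and EIF2AK3 it was below the exon bases. A longer length gives a lower FPKM, so the order of genes below depends on these lengths. The places of ATF4 and CHAC1 in that order are doubtful. In Control cells the order of mean FPKM was DDIT4 (46.4), ATF4 (35.4), PPP1R15A (34.3), PHGDH (26.6), PSAT1 (17.2), DDIT3 (17.2), TRIB3 (15.9), EIF2AK3 (6.09), ASNS (4.61) and CHAC1 (2.09). Among neighbours in this order, the Control libraries overlapped between ATF4 and PPP1R15A, PSAT1 and DDIT3, DDIT3 and TRIB3, and EIF2AK3 and ASNS. With rhChem157S the highest mean was that of PPP1R15A (64.2) and the lowest remained that of CHAC1 (0.535). DDIT4, the highest in Control, had a treated mean of 30.8, and its treated libraries overlapped those of ATF4 (33.7).

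ATF4, on chromosome 22 from 39519695 to 39522685 (GENCODE release 29, GRCh38, like all gene positions that follow), encodes the factor that gives the response its name. Its FPKM was 40.0, 31.6 and 34.5 in Control replicates 1 to 3 and 31.0, 29.1 and 41.1 in rhChem157S replicates 1 to 3, from 8144 to 11864 counts. The highest and the lowest of the 6 values were both treated libraries, and the groups overlapped. The log2 fold change was 0.07 (standard error 0.18, 95% interval -0.35 to 0.50, edgeR adjusted p = 0.833), and it turned to -0.07 with library size as the only scaling. ATF4 has 4 named pseudogene copies, and its value is uncertain as far as reads are shared with them. Over the 6 libraries, the genes whose log2 CPM was most like that of ATF4 by Pearson's r were FIGNL1 (0.993), KLF3 (0.990), CCDC12 (0.988), GPS2 (0.988) and CLOCK (0.982). These are the extremes of all tested genes, the points share the same libraries and their scaling, and no test was made.

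DDIT3 encodes CHOP, a C/EBP-family factor that ATF4 induces and that promotes cell death under lasting stress. The gene occupies positions 57516588 to 57521737 of chromosome 12. In DDIT3 the FPKM was 15.2, 17.4 and 18.9 in Control and 14.0, 13.8 and 15.5 with rhChem157S. Only rhChem157S replicate 3 reached into the Control range, just above Control replicate 1. DDIT3 had -0.12 as its log2 fold change (standard error 0.15, 95% interval -0.46 to 0.23, edgeR adjusted p = 0.651). DDIT3 shares 355 of its 1307 exon bases with MARS1 on the opposite strand, and without a stated strand setting reads of both genes cannot be told apart there. MARS1 had a log2 fold change of 0.08 (edgeR adjusted p = 0.678).

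TRIB3 encodes a pseudokinase that is induced by ATF4 and CHOP, restrains ATF4 in turn and binds the kinase AKT. The gene spans positions 362835 to 397559 of chromosome 20. In TRIB3 the FPKM was 14.4, 16.0 and 17.3 in Control and 10.8, 10.3 and 11.6 with rhChem157S, from 1151 to 1923 counts. The highest treated value was under the lowest Control value. The means were 15.9 ± 1.43 and 10.9 ± 0.687 FPKM (SD, n = 3 each). TRIB3 gave a log2 fold change of -0.41 (standard error 0.12, 95% interval -0.68 to -0.13, edgeR adjusted p = 0.126), and DESeq2 gave an adjusted p of 0.0462. An exact two-sided permutation test on the FPKM gave p = 0.10, and 6 libraries in groups of 3 can give no smaller p. Without rhChem157S replicate 3 the log2 fold change was -0.51 and the adjusted p 0.0430 with edgeR and 6.04e-04 with DESeq2. Without any one of the other 5 libraries neither tool called TRIB3, and DESeq2's adjusted p was 0.0850 to 0.263.

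CHAC1 encodes a γ-glutamyl cyclotransferase that breaks down glutathione and is a late target of the ATF4 and CHOP branch. The gene spans positions 40952962 to 40956519 of chromosome 15. The counts were 265, 242 and 334 in Control and 74, 72 and 77 with rhChem157S, so this is the gene of the 10 with the fewest reads. Its FPKM was 2.01, 1.77 and 2.49 in Control and 0.519, 0.533 and 0.553 with rhChem157S. The 3 treated libraries were nearly level, and the highest of them was under every Control library. The means were 2.09 ± 0.367 and 0.535 ± 0.0174 FPKM (SD, n = 3 each). The log2 fold change was -1.83 (standard error 0.22, 95% interval -2.35 to -1.31), with an unadjusted p of 5.51e-05, number 12 in order of p among the 13311 genes. The adjusted p was 0.0574 with edgeR, above the threshold of 0.05, and 1.34e-10 with DESeq2. The exact two-sided permutation test on the FPKM gave p = 0.10. Leaving out each library in turn kept the log2 fold change between -1.94 and -1.69. The adjusted p of edgeR was then 0.0266 without rhChem157S replicate 1 and 0.0248 without rhChem157S replicate 3. It was 0.181 to 0.359 without any one of the other 4 libraries, fits in which edgeR called 0 genes of the whole table. With DESeq2 the adjusted p ran from 3.02e-10 to 2.19e-06 over the libraries left out. Binding to the core printed above for this gene was not measured.

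DDIT4 encodes REDD1, an inhibitor of the growth kinase complex mTORC1 that ATF4, hypoxia and glucocorticoids can induce. The gene spans positions 72273920 to 72276036 of chromosome 10. FPKM values were 40.6, 52.2 and 46.4 in Control and 24.5, 34.1 and 33.7 with rhChem157S. All 3 treated values were under the lowest Control value, and rhChem157S replicate 1 was the lowest by a wide margin. The means were 46.4 ± 5.82 and 30.8 ± 5.48 FPKM (SD, n = 3 each). In log2 terms the difference was -0.45 (standard error 0.17, 95% interval -0.86 to -0.05, edgeR adjusted p = 0.186; DESeq2 adjusted p = 0.115), and without rhChem157S replicate 1 it was -0.30. Without rhChem157S replicate 3 DESeq2 gave an adjusted p of 0.0131. DDIT4 shares 847 of its 2058 exon bases with DDIT4-AS1 on the opposite strand, whose reads cannot be told apart there.

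ASNS, PSAT1 and PHGDH encode enzymes of amino acid synthesis. ASNS makes asparagine, PHGDH catalyses the first step of serine synthesis from a glycolytic intermediate, and PSAT1 catalyses the step that follows. ASNS, on chromosome 7 from 97852118 to 97872542, had FPKM of 4.01, 3.77 and 6.06 in Control and 6.10, 4.64 and 2.94 with rhChem157S. The treated libraries held both the highest and the lowest value. Its log2 fold change was 0.10 (standard error 0.27, 95% interval -0.54 to 0.73, edgeR adjusted p = 0.847), and -0.02 with library size only. PHGDH, on chromosome 1 from 119648411 to 119744226, had FPKM of 27.2, 25.2 and 27.4 in Control and 36.3, 26.8 and 17.7 with rhChem157S. Here too the treated libraries lay on both sides of a narrow Control range, with an SD of 9.33 against 1.22 in Control. Its log2 fold change was 0.13 (standard error 0.20, 95% interval -0.34 to 0.60, edgeR adjusted p = 0.715), and -0.12 without rhChem157S replicate 1. PSAT1, on chromosome 9 from 78297143 to 78330093, had FPKM of 15.3, 16.2 and 20.2 in Control and 17.1, 14.8 and 14.7 with rhChem157S. Its groups overlapped as well, with a log2 fold change of -0.02 (standard error 0.13, 95% interval -0.31 to 0.28, edgeR adjusted p = 0.946). ASNS and PSAT1 have 4 named pseudogene copies each, which may share reads with them, and ASNS shares 1985 of its 4455 exon bases with another transcript on the same strand.

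PPP1R15A encodes GADD34, the stress-induced subunit that directs protein phosphatase 1 to eIF2α and so closes the response. It occupies positions 48872392 to 48876057 of chromosome 19. PPP1R15A had FPKM of 35.03, 33.9 and 33.9 in Control and 37.1, 45.5 and 110.0 with rhChem157S, from 2869 to 9664 counts. Every treated library was above every Control library, and rhChem157S replicate 3 stood far above replicates 1 and 2. The means were 34.3 ± 0.653 and 64.2 ± 39.9 FPKM (SD, n = 3 each). Its log2 fold change came to 1.07 (standard error 0.41, 95% interval 0.10 to 2.03, edgeR adjusted p = 0.190; DESeq2 adjusted p = 0.232). This size rests on 1 library. Without rhChem157S replicate 3 the log2 fold change was 0.35 (edgeR adjusted p = 0.0987). DESeq2 gave an adjusted p of 0.0340 without that library, 5.24e-04 without rhChem157S replicate 1 and 0.0461 without rhChem157S replicate 2. With replicate 3 left out, the treated libraries still lay above every Control library.

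EIF2AK3 encodes PERK, the eIF2α kinase of the endoplasmic reticulum. It occupies positions 88556741 to 88627576 of chromosome 2. EIF2AK3 had FPKM of 6.38, 5.92 and 5.96 in Control and 5.65, 6.11 and 3.71 with rhChem157S. Replicate 3 of the treated group was the lowest, and the other 2 treated libraries were close to the Control libraries. The log2 fold change was -0.12 (standard error 0.16, 95% interval -0.49 to 0.25, edgeR adjusted p = 0.670), and 0.03 without rhChem157S replicate 3. EIF2AK3 shares 781 of its 5434 exon bases with an antisense gene.

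**Figure D2:**
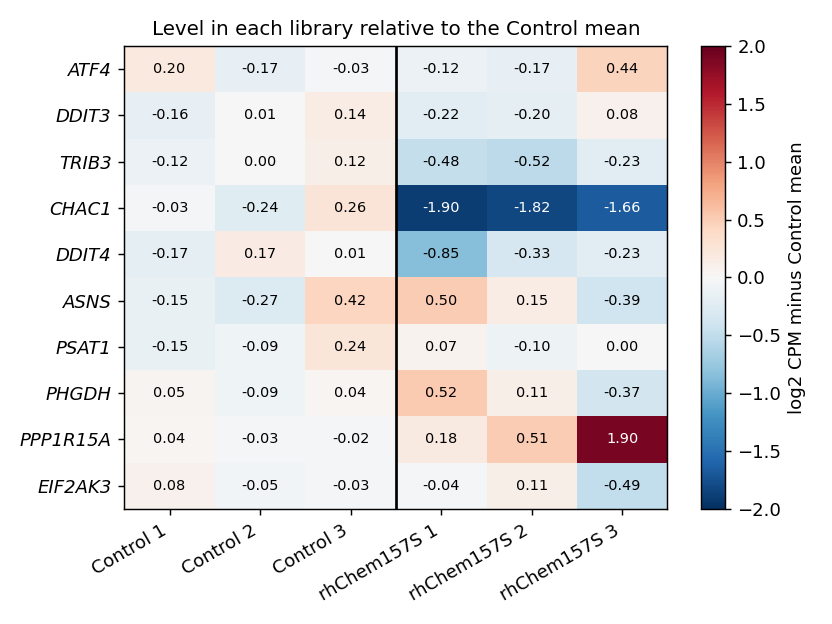
Level of the 10 genes (rows) in the 6 libraries (columns) as log2 CPM after TMM scaling minus the mean of the Control libraries, printed in each cell and coloured from -2 to 2. CHAC1 lies between -1.90 and -1.66 in all 3 treated libraries, and rhChem157S replicate 3 holds 1.90 for PPP1R15A and -0.49 for EIF2AK3.

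Relative to the Control mean on the log2 CPM scale, the 10 genes did not move together within the treated group. The treated replicate 3 held the highest or the lowest of the 6 values in 5 genes. These were ATF4 (0.44) and PPP1R15A (1.90) at the top and ASNS (-0.39), PHGDH (-0.37) and EIF2AK3 (-0.49) at the bottom. The treated replicate 1 held an extreme in 5 genes as well, with ASNS (0.50) and PHGDH (0.52) at the top and DDIT3 (-0.22), CHAC1 (-1.90) and DDIT4 (-0.85) at the bottom. ASNS and PHGDH ran from the highest to the lowest value of all libraries between 2 replicates of the same treatment. The median over the 10 genes was -0.08, -0.07 and 0.08 in Control replicates 1 to 3 and -0.08, -0.13 and -0.23 in rhChem157S replicates 1 to 3. The median of all tested genes stayed within 0.01 of 0 in every library. TMM scaling holds that median near 0, so it does not measure how far a median of 10 genes can stray.

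**Figure D3:**
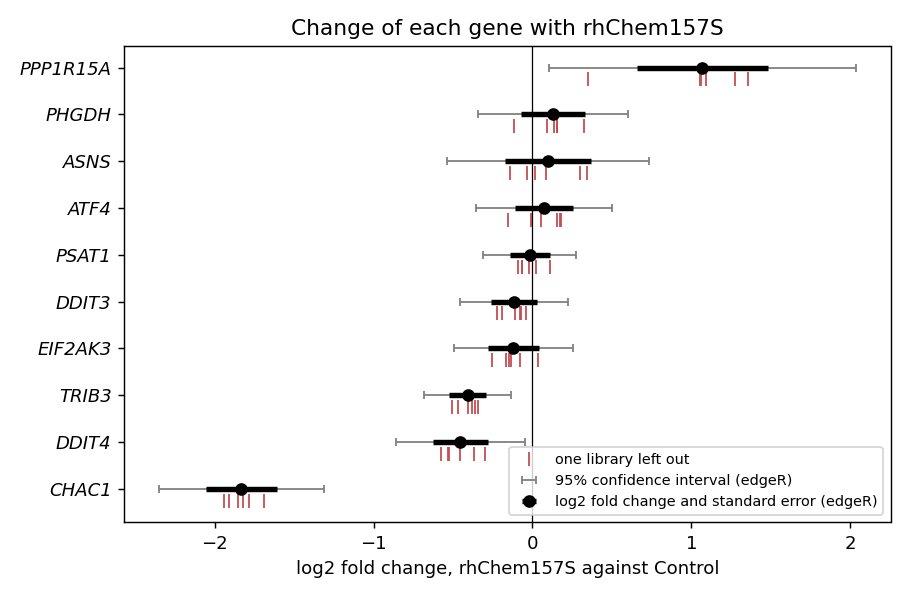
Log2 fold change of each gene with rhChem157S against Control from edgeR (black points, thick bars 1 standard error, thin grey bars the 95% confidence interval), with red ticks for the value without each library in turn. The ticks of CHAC1 stay between -1.94 and -1.69, those of TRIB3 and DDIT4 stay below 0, and 1 tick of PPP1R15A lies at 0.35.

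ATF3, a related stress factor that ATF4 also induces, had FPKM of 4.10, 6.55 and 5.60 in Control and 2.24, 2.52 and 2.30 with rhChem157S, with a log2 fold change of -1.07 (standard error 0.20, edgeR adjusted p = 0.0752; DESeq2 adjusted p = 9.72e-05).

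A wider list of 58 other genes of the response, sorted into 8 groups by role, was examined in the same fit. Of these, 57 were tested, and FGF21 was not, with at most 1 count in any library. With edgeR 0 of the 57 had an adjusted p under 0.05, and 13 had an unadjusted p under 0.05. As a share this count of 13 equals the 22.8% of all tested genes. By direction, 4 were higher and 9 lower, against 11.4% of all genes each way. DESeq2 called 10, against 9.05% of all genes, 3 higher (MTHFD1, EPRS1 and WARS1) and 7 lower. Of all 13311 genes kept, it called 532 higher and 747 lower. The median log2 fold change of the 57 was 0.10, with 36 positive and 21 negative values, against 6886 and 6425 over all tested genes. Mean FPKM was higher in 21 and lower in 36 of the 57, so the sign of small differences depends on the scaling. Apart from the 2 genes with the smallest p in each group, genes named here were chosen after their values were seen.

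Stress effectors and secreted factors had 4 of 9 tested genes at an unadjusted p under 0.05 with edgeR, all 4 lower, where 11.4% of all genes were lower at that p. SESN2 encodes sestrin 2, which restrains mTORC1 when leucine is short. Its FPKM was 12.9, 14.2 and 14.4 in Control and 8.62, 7.28 and 7.28 with rhChem157S, a log2 fold change of -0.71 (standard error 0.10, edgeR adjusted p = 0.0692; DESeq2 adjusted p = 9.83e-07). BBC3 encodes the pro-apoptotic protein PUMA. Its FPKM was 5.55, 7.07 and 4.79 in Control and 3.33, 3.06 and 2.73 with rhChem157S, a log2 fold change of -0.80 (standard error 0.18, edgeR adjusted p = 0.0914; DESeq2 adjusted p = 0.00221). Both genes were lower in every treated library than in every Control library. GDF15, a secreted stress cytokine, had a log2 fold change of -0.98 (edgeR adjusted p = 0.154; DESeq2 adjusted p = 0.0257). Its groups overlapped in TMM-scaled CPM. The fourth gene, TNFRSF10B, lay at -0.38, with an adjusted p of 0.137 with edgeR and 0.0606 with DESeq2, and its groups did not overlap.

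The amino acid transporters had 3 of 8 genes at an unadjusted p under 0.05 with edgeR, all 3 lower, against the same 11.4% of all genes. The glycine transporter gene SLC6A9 had FPKM of 1.63, 1.26 and 1.87 in Control and 0.668, 0.554 and 0.744 with rhChem157S, a log2 fold change of -1.14 (standard error 0.26, edgeR adjusted p = 0.0948; DESeq2 adjusted p = 0.00197). SLC38A2, which imports small neutral amino acids, had 135, 130 and 138 FPKM in Control and 101, 97.3 and 91.6 with rhChem157S, a log2 fold change of -0.35 (standard error 0.08, edgeR adjusted p = 0.0954; DESeq2 adjusted p = 0.00136). SLC1A4, a further neutral amino acid transporter gene, was the third, at -0.47 (DESeq2 adjusted p = 0.0213). In all 3 the treated libraries were below the Control libraries. The cystine transporter gene SLC7A11 differed by 0.33 on the log2 scale (edgeR adjusted p = 0.556) with overlapping groups and its highest FPKM, 3.84, in rhChem157S replicate 3.

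The aminoacyl-tRNA synthetases load amino acids onto tRNA, and ATF4 induces several of them. Their median log2 fold change was 0.21, with 10 of 12 genes positive (8 of 12 by mean FPKM). With edgeR 2 had an unadjusted p under 0.05, both higher, against 11.4% of all genes higher and 22.8% in either direction. In 5 of the 12 the groups did not overlap in TMM-scaled CPM, all 5 higher, against 16.5% of all genes higher. Of these 5, IARS1, NARS1 and YARS1 had groups that overlapped by FPKM, so their separation depends on the scaling. WARS1, the tryptophan enzyme, had 39.8, 37.6 and 44.7 FPKM in Control and 58.3, 49.96 and 53.6 with rhChem157S, a log2 fold change of 0.54 (standard error 0.10, edgeR adjusted p = 0.0752; DESeq2 adjusted p = 0.00115). EPRS1, the enzyme for glutamate and proline, had 24.0, 22.9 and 22.6 FPKM in Control and 26.5, 27.7 and 25.4 with rhChem157S, a log2 fold change of 0.33 (standard error 0.08, edgeR adjusted p = 0.0991; DESeq2 adjusted p = 0.0140). Neither group of libraries overlapped the other in these 2 genes.

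Among serine, glycine and one-carbon enzymes, 2 of 7 had an unadjusted p under 0.05 with edgeR, both higher. Of all genes, 11.4% were higher at that p and 22.8% passed it in either direction. MTHFD1 lay at 0.33 on the log2 scale (standard error 0.09, edgeR adjusted p = 0.116; DESeq2 adjusted p = 0.0342) and SHMT2, for the mitochondrial serine hydroxymethyltransferase, 0.23 (standard error 0.09, edgeR adjusted p = 0.190; DESeq2 adjusted p = 0.171). MTHFD2, a well-known ATF4 target of the mitochondrial pathway, had -0.15 (edgeR adjusted p = 0.522). The 4 proline and cysteine enzymes had 0 genes at an unadjusted p under 0.05 with edgeR and 0 called by DESeq2. Of all genes, 22.8% and 9.05% were, so a count of 0 among so few genes says little. The smallest p there was that of ALDH18A1, at 0.16 (edgeR adjusted p = 0.267), followed by PYCR1 at 0.05 (edgeR adjusted p = 0.798).

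All 8 subunits of eIF2 and of its exchange factor eIF2B had a positive log2 fold change, from 0.04 to 0.24. Of all 13311 tested genes, 6886 were positive. With edgeR 0 of the 8 had an unadjusted p under 0.05 and DESeq2 called 0, against 22.8% and 9.05% of all genes. EIF2B4 had the smallest p, at 0.24 (standard error 0.13, edgeR adjusted p = 0.303), then EIF2S3 at 0.12 (standard error 0.07, edgeR adjusted p = 0.348). This sign depends on the scaling. With library size only, the median of all genes shifts from 0.01 to -0.12, and mean FPKM was lower with rhChem157S in 5 of the 8 (EIF2S1, EIF2S2, EIF2S3, EIF2B2 and EIF2B5). Of the other kinases and the constitutive phosphatase subunit, PPP1R15B had 13.7, 13.4 and 14.4 FPKM in Control and 10.7, 9.92 and 10.3 with rhChem157S, a log2 fold change of -0.29 (standard error 0.08, edgeR adjusted p = 0.127; DESeq2 adjusted p = 0.0550). Its direction was opposite to that of its stress-induced counterpart PPP1R15A. EIF2AK2, which encodes the RNA-sensing kinase PKR, had -0.47 (standard error 0.23, edgeR adjusted p = 0.272) with overlapping groups. Of the bZIP partners and relatives, JDP2 had 5.11, 4.38 and 4.34 FPKM in Control and 3.79, 2.63 and 2.21 with rhChem157S, a log2 fold change of -0.56 (standard error 0.17, edgeR adjusted p = 0.138; DESeq2 adjusted p = 0.0474), and NFE2L2 had -0.13 (standard error 0.08, edgeR adjusted p = 0.357).

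**Figure D4:**
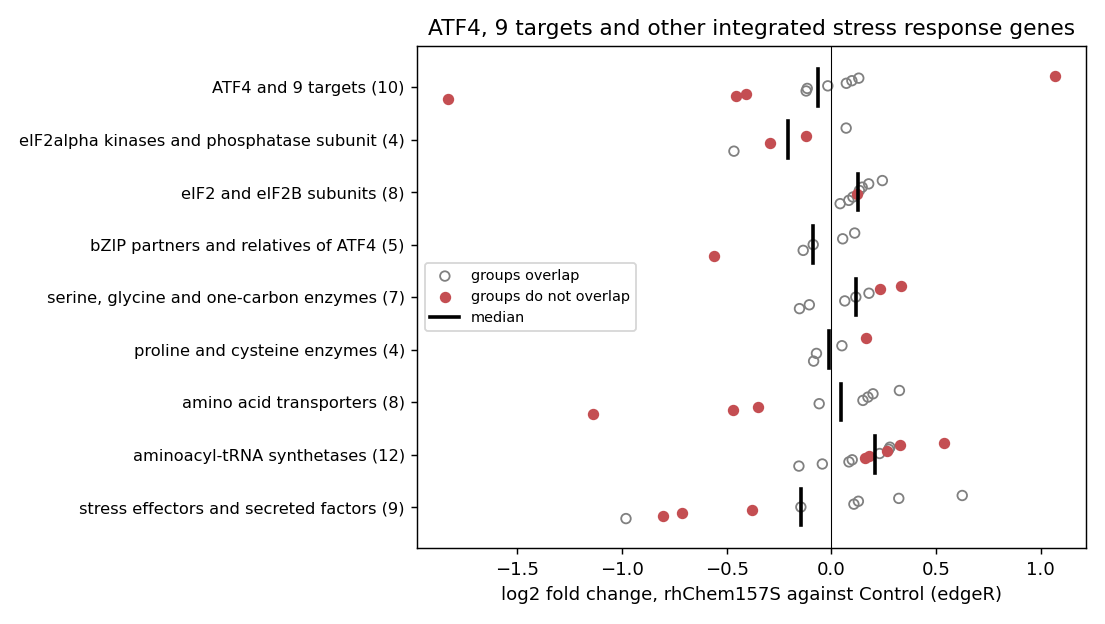
Log2 fold change (edgeR, x axis) of the 10 genes and of the 57 other tested genes of the response, by role with the number tested in brackets. Filled red points are genes whose Control and rhChem157S libraries do not overlap in TMM-scaled CPM, open grey points are genes whose libraries overlap, and black bars are medians, which run from -0.21 for the eIF2α kinases and phosphatase subunit to 0.21 for the aminoacyl-tRNA synthetases.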

How the data were processed

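RNA of 3 Control and 3 rhChem157S-treated 12Z cultures was sequenced. The authors cleaned the reads with fastp, aligned them to GRCh38.p13 with HISAT2 and deposited raw counts per gene from HTSeq. They also deposited the FPKM, which matched the count over a fixed gene length and the total within 1% in all 12103 genes with 20 counts or more in every library. Strand setting and annotation release are not given in the sources used here.

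Counts were fitted in R 4.3.3 with edgeR 4.0.16 (TMM, filterByExpr with the group, quasi-likelihood test) and adjusted over all 13311 genes kept. Standard errors are the log2 fold change over the root of F. DESeq2 1.42.0 served as an alternative, as did limma 3.58.1 on log2-transformed FPKM with a pseudocount of 1 or 0.1, RLE or library-size scaling, no filter, a replicate block, and dropping 1 library at a time. The tests were tried first on simulated data with changes larger than that of any of the 10 genes, which cannot show how they do on smaller changes. Overlap of groups refers to TMM-scaled CPM, and log2 CPM used a prior count of 2. Gene positions came from GENCODE 29 and promoters from RefSeq. All 10 members and the 2 genes with the smallest p in each other list are named. Members and lists were chosen with earlier results of these data known.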

Additional observations from a re-analysis of the deposited data

How the results depend on the processing

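The count of the 10 genes called was 0 with edgeR and became 2 with DESeq2, 1 without the filter on low counts, 1 with limma on log2(FPKM + 1) and 1 with limma on log2(FPKM + 0.1). With 1 library left out it ran from 0 to 2 with edgeR (1 without rhChem157S replicate 1, 2 without replicate 3), and, chosen after seeing the data, from 1 to 4 with DESeq2. The 4 were called without rhChem157S replicate 3, and CHAC1 was the 1 called without any one Control library. The count at an unadjusted p under 0.05 ran from 2, without Control replicate 2 or 3, to 5, without rhChem157S replicate 3. Of the 57 other genes, edgeR called 0 to 4 and DESeq2 3 to 13, the fewest without Control replicate 2 and the most without rhChem157S replicate 3 (also chosen after seeing the data). Over the whole table edgeR called 4 genes with all libraries and 17 without the filter. It called 844 without rhChem157S replicate 1, 415 without rhChem157S replicate 3 and 0 without any one of the other 4. Limma called 179 and 23 with pseudocounts of 1 and 0.1. With 1 library left out, edgeR called genes of the 10 or the 57 only in the 2 fits that called any gene. The fit with 844 called fewer of them than the fit with 415. For DESeq2 with 1 library left out, calls over the whole table were not counted. CHAC1, TRIB3, DDIT4, DDIT3 and PPP1R15A kept their direction under all 13 alternatives. The sign turned for ATF4 with library size only (-0.0687), with limma at pseudocounts of 1 and 0.1 (-0.0760 and -0.0783) and on leaving out a library (-0.15 to 0.18). It turned for ASNS with library size only (-0.0159), with limma (-0.0317 and -0.0437) and on leaving out a library (-0.14 to 0.34). PHGDH turned with limma (-0.0387 and -0.0421) and on leaving out a library (-0.12 to 0.33). PSAT1 (-0.0881 to 0.11) and EIF2AK3 (-0.26 to 0.0327) turned only on leaving out a library. The cause was not tested. The limma values of CHAC1, -1.003 and -1.77 with pseudocounts of 1 and 0.1, show how a pseudocount shrinks a low gene. Deviations from the group means correlated at 0.241, 0.00147 and 0.247 between the groups for replicate numbers 1, 2 and 3. Libraries 1 and 3 correlated best with their own number, and libraries 2 did not. With 3 libraries a group, each centred on the group mean, this cannot decide whether the numbers pair the libraries. With the replicate block 0 of the 10 genes and 1 of 13311 were called. Without it 4 of 13311 were. With 72 to 334 counts, CHAC1 has the widest counting error of the 10.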
